A study of Mus musculus with 36 samples.

Results

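The 7 genes described here are Pax1, Pax9, Zic1, Zic4, Meox1, Meox2 and Nkx3-2, out of 24411 genes measured in cultured mouse mesenchymal stem cells (MSCs). They are transcription factors of the axial skeleton, and they were chosen by name with their measured RNA levels by tissue already known. Those levels are therefore given as a description, with no test. Of the 7, Pax1, Pax9, Zic4 and Meox2 passed the filter on low counts (at least 1 CPM, the count scaled to library size, in at least 2 libraries), as did 12509 genes in all.

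The vertebrae and ribs form from the sclerotome, the lower part of each somite, in response to hedgehog signals from the notochord and floor plate. In the sclerotome the paired-box factors Pax1 and Pax9 act together, and they activate Nkx3-2, a homeobox factor that permits cartilage formation. Meox1 and Meox2 are homeobox factors that act in the whole somite, upstream of Pax1, Pax9 and Nkx3-2. Zic1 and Zic4 are zinc-finger factors best known from the dorsal neural tube and the dorsal somite, and they lie head to head on one chromosome.

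The study compared MSCs from the bone marrow of the femur (fBM-MSCs), the bone marrow of the vertebrae (vBM-MSCs), adipose tissue (A-MSCs) and lung (P-MSCs) of untreated 8-week-old C57BL6/J mice, to ask how MSCs differ by origin. All cells were expanded in the same medium on collagen-coated dishes and used within 3 passages, so each library is a cultured population and not the tissue itself. Marrow cells were isolated by crushing bone, and lung and adipose cells by collagenase digestion. This step cannot be told apart from marrow against non-marrow origin. RNA-seq gave 3 libraries each for femoral marrow, adipose tissue and lung and 2 for vertebral marrow, with 19569650 to 40517739 expected counts each, and the third vBM-MSC library was not analysed here. ATAC-seq, which marks accessible chromatin by transposase insertion, gave 1 pooled list of summits per tissue from 6 samples (3 replicates). The 4 tissues came from the same 3 mice by the study's methods, but the mouse of each library is unknown. The labelled MSC surface genes Itgb1, Cd44, Ly6a and Vcam1 were present in every library, with summed levels of 983 to 2336 TPM, a measure of transcript abundance scaled for length and library size. In bulk libraries such as these, fewer cells with a transcript and less transcript per cell cannot be told apart.

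Pax1 and Zic1 sequences are shown first, because Pax1 had the highest level of the group and Zic1 the one promoter accessible, at the threshold used, in vBM-MSCs alone. The coordinates are of GRCm38 (mm10) and the sequences are from RefSeq, 5′ to 3′ along the gene. Pax1 lies at chr2:147364994-147375049 on the plus strand and has 5 exons. The 250 bases before its start (chr2:147364744-147364993, plus strand) are 58.8% G or C. Capitals mark a GLI core match and a PAX core match, described below.
Pax1 promoter: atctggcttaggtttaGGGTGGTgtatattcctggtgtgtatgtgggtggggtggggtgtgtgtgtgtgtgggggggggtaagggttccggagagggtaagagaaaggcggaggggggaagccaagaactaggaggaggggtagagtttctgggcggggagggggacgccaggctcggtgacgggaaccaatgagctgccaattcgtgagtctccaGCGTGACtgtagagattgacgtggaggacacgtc
Zic1 lies at chr9:91358058-91365768 on the minus strand. The 250 bases before its start (chr9:91365769-91366018, minus strand) are 66% G or C and hold 27 CG pairs, which are in capitals, against a median of 6 over 31396 RefSeq promoters. Part of this stretch is also the first exon of predicted Zic4 transcripts that run the other way.
Zic1 promoter: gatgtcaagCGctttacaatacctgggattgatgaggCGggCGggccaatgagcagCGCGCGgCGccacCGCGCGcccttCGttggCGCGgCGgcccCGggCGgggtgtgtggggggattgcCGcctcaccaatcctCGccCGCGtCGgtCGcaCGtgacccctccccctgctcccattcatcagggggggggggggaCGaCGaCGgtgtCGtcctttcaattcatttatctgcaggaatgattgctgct

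Pax1, which drives the ventral sclerotome, had the highest levels of the group. It measured 17.85 and 13.85 TPM in the 2 vBM-MSC libraries. The 3 fBM-MSC libraries had 0.28, 2.48 and 0.54 TPM, the P-MSC libraries 0.60, 0.49 and 0.63 TPM, and the A-MSC libraries 0.00, 0.12 and 0.00 TPM. Both vBM-MSC libraries lay above all others, the fBM-MSC and P-MSC ranges overlapped, and A-MSCs were lowest with no overlap with P-MSCs. The vBM-MSC mean was 15.9 ± 2.83 TPM (SD, n = 2), at the 79.7th percentile of all genes. Over pooled counts, the vBM-MSC level was 12.9 times that of fBM-MSCs (1685 and 175 counts), 26.1 times that of P-MSCs and 349 times that of A-MSCs. The fitted log2 fold change over fBM-MSCs was 3.83 (SE 0.81), and it was 5.17 without fBM-MSC replicate 2, the femoral library with the most Pax1.

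Pax9, the sclerotome partner of Pax1, had the same order of tissues at lower levels. It measured 1.51 and 2.78 TPM in vBM-MSCs, 0.35, 0.17 and 0.44 TPM in fBM-MSCs, 0.05, 0.25 and 0.09 TPM in P-MSCs, and 0.02, 0.00 and 0.07 TPM in A-MSCs. The vBM-MSC libraries again lay above all others, and the ranges of neighbours below them overlapped. The pooled level in vBM-MSCs was 6.61 times that in fBM-MSCs, 17.7 times that in P-MSCs and 76.5 times that in A-MSCs (231 counts against 47, 21 and 5). The fitted log2 fold change over fBM-MSCs was 2.66 (SE 0.96). Between the vBM-MSC libraries the 2 genes did not go together, since the library with more Pax1 had less Pax9. In fBM-MSCs, likewise, replicate 2 had the most Pax1 and the least Pax9.

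Zic1 and Zic4, whose curated starts lie 3.20 kb apart, were counted in no library outside vBM-MSCs. Zic1 measured 0.43 and 1.12 TPM in vBM-MSCs (27 and 86 counts). Zic4 measured 0.52 and 1.03 TPM in the same libraries (41 and 98 counts). Both genes were listed at 0 in all 9 other libraries. Against a floor of 3 counts over the other tissue's libraries, the pooled vBM-MSC level of Zic1 was at least 50.6-fold that of fBM-MSCs, 60.6-fold that of P-MSCs and 62.4-fold that of A-MSCs. For Zic4 these lower bounds were 62.3-fold, 74.6-fold and 76.8-fold. The levels in vBM-MSCs were low, at the 53.9th percentile of all genes for both. The libraries were not strand-specific and the predicted Zic4 transcripts overlap the 5′ end of Zic1, so reads there could be assigned to either gene by the counting model. RSEM also divides reads between similar genes such as Pax1 and Pax9.

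Nkx3-2, the target of Pax1 and Pax9, was found in marrow of both sites. It measured 0.69, 0.23 and 0.94 TPM in fBM-MSCs and 0.04 and 0.94 TPM in vBM-MSCs. It was listed at 0 in all A-MSC and P-MSC libraries. The femoral and vertebral ranges overlapped, and 1 count made up the lower vBM-MSC value. The pooled vBM-MSC level was 0.818 times the femoral one, at least 15.5-fold that of A-MSCs and at least 15.0-fold that of P-MSCs.

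Meox2 did not follow the vertebral pattern. This homeobox gene of the somite and limb muscle measured 6.23, 3.83 and 0.00 TPM in fBM-MSCs, 0.00 and 2.24 TPM in vBM-MSCs, and 0.00, 0.00 and 0.86 TPM in P-MSCs, and was listed at 0 in A-MSCs. In each of the 3 tissues with any Meox2, at least 1 library was at 0, and all ranges overlapped. The pooled vBM-MSC level was 0.434 times the femoral one (115 and 356 counts). The fitted log2 fold change was −1.71 (SE 2.30), and it was −10.38 without vBM-MSC replicate 2 and −0.72 without vBM-MSC replicate 1. Meox1, its paralog, measured 0.38, 0.16 and 0.00 TPM in fBM-MSCs, 1.02 and 0.00 TPM in vBM-MSCs, 0.00, 0.00 and 0.06 TPM in P-MSCs, and 0.33, 0.00 and 0.00 TPM in A-MSCs. Its highest value was in vertebral replicate 1, where Meox2 was at 0, and all 4 ranges overlapped.

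**Figure D1:**
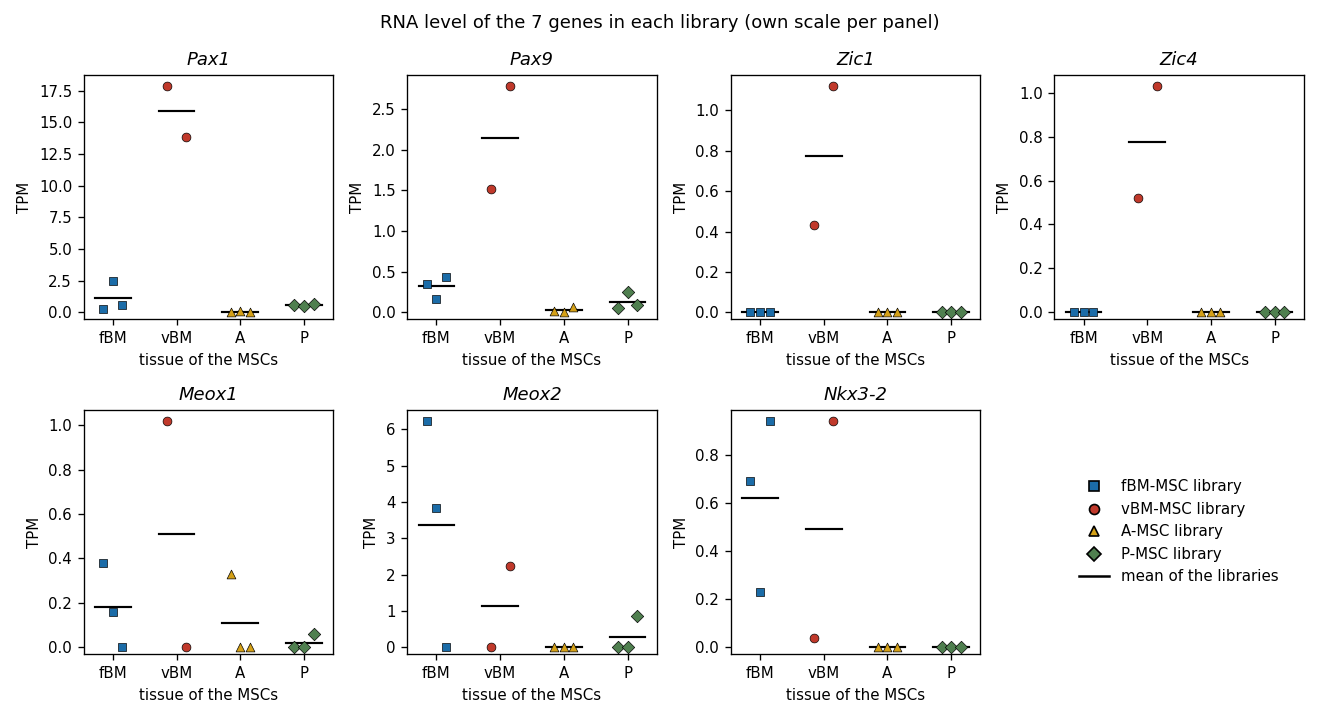
TPM of the 7 genes (vertical axis, a separate scale in each panel) in each RNA-seq library, by tissue of the MSCs; points are libraries and horizontal lines are means. The vBM-MSC libraries of Pax1 (13.85 and 17.85), Pax9, Zic1 and Zic4 lie above all others, while Meox1, Meox2 and Nkx3-2 overlap between vertebral and femoral marrow.

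Accessible chromatin at these genes was measured apart from RNA and was not used to choose them. Summits with a −log10 q of at least 7 were counted, and fold enrichment is over the background of the whole genome. Within 1 kb of a start, a summit was present at 4 of the 7 genes in vBM-MSCs and at 3 of 7 in each other tissue. Over 22153 genes, 53.2% had one in vBM-MSCs, 52.2% in fBM-MSCs, 53.3% in P-MSCs and 54.2% in A-MSCs, so the members' counts were near the background. The promoters of Pax1, Pax9 and Nkx3-2 were accessible in all 4 tissues, those of Zic4, Meox1 and Meox2 in none, and that of Zic1 in vBM-MSCs alone. With weaker summits counted too, Zic4 had one in vBM-MSCs, Meox2 in P-MSCs and Zic1 also in A-MSCs. A promoter summit in vBM-MSCs alone was found for 178 of the 22153 genes (0.804%). Of all genes with a vBM-MSC mean above 0 and under 1 TPM, the range of Zic1, Zic4, Meox1 and Nkx3-2, 48.4% had a vBM-MSC promoter summit, against 95.3% of those at 10 TPM or more, as Pax1.

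At Pax1 the promoter summit was of similar size in tissues whose RNA differed widely. Its fold enrichment was 9.20 in vBM-MSCs, 9.56 in fBM-MSCs, 9.93 in P-MSCs and 7.36 in A-MSCs, 168 to 318 bases inside the gene. In vBM-MSCs a further summit, with a fold enrichment of 7.36, lay 7.69 kb downstream of the start in an intron, and no other tissue had even a weaker summit within 250 bases. It is shown because it is the only summit of the locus, at this threshold, without a counterpart elsewhere (chr2:147372609-147372759, plus strand, CG in capitals).
Pax1 intron: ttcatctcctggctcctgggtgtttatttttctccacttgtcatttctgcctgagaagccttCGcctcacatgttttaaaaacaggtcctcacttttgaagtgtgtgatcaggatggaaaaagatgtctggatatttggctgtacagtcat

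The Pax9 promoter summit was the tallest at any of these genes. The fold enrichment was 26.9 in vBM-MSCs (95.5th percentile of that list), 22.1 in fBM-MSCs (93.4th), 23.2 in P-MSCs (89.2nd) and 15.1 in A-MSCs (77.0th), over a range of RNA from 2.15 to 0.0300 TPM. The gene lies at chr12:56695471-56712822 on the plus strand. A distal summit 32.5 kb upstream was present in both marrow sites and in neither of the other tissues, at a fold enrichment of 19.9 in vBM-MSCs (−log10 q of 56.1) and 11.8 in fBM-MSCs (25.9). It is shown as the strongest summit outside a promoter at any of the 7 genes (chr12:56662856-56663006, plus strand, intergenic).
Pax9 upstream: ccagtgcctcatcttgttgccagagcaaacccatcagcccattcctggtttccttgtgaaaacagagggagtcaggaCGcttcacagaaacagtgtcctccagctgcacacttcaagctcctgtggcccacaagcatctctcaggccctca
Summits at the threshold in vBM-MSCs alone lay 3.89 kb and 2.72 kb upstream (fold enrichments 8.46 and 7.73), but weaker summits of fBM-MSCs and A-MSCs, respectively, lay at the same places. A further vBM-MSC summit lay 5.42 kb upstream (5.52), and another 899 bases inside the gene (6.99), with weaker A-MSC and P-MSC summits beside it. The fBM-MSC list had 3 regions of its own here at the threshold, none of them with a fold enrichment above 7.73. Weaker vBM-MSC summits lay at those 17.6 kb and 13.8 kb upstream, and a weaker P-MSC summit at the latter.

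The Zic1 and Zic4 locus held 7 accessible regions in vBM-MSCs, 0 in fBM-MSCs, 1 in P-MSCs and 2 in A-MSCs. With every deposited summit counted, the vBM-MSC list had 17 there, against 2, 1 and 3. At the Zic1 promoter the vBM-MSC summits lay 188 bases upstream of the start and 443 and 828 bases inside the gene, with fold enrichments of 8.09, 7.36 and 8.09. The first of them falls in the printed promoter, and a weaker A-MSC summit lay beside the one at 443 bases. The strongest summit of the locus lay in an intron of Zic4, 3.55 kb from a curated start, at 12.5 in vBM-MSCs (−log10 q of 28.4) and 5.89 in each non-marrow tissue. The strongest of those without a counterpart lay 9.99 kb downstream of the Zic1 start, beyond the gene's end, at 9.93 (−log10 q of 19.8). Both are shown, with CG in capitals, because they are the strongest distal summits of the locus (chr9:91355701-91355851, minus strand, and chr9:91381451-91381601, plus strand).
Zic1 downstream: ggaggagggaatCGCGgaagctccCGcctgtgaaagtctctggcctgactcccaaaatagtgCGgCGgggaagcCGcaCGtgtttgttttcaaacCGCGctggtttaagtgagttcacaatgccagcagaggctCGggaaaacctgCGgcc
Zic4 intron: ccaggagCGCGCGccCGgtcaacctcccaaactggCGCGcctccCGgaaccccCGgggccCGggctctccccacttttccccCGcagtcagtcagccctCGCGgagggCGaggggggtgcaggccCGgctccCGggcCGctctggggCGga
These windows hold 11 and 17 CG pairs in 151 bases, while the Pax1 intron and Pax9 upstream windows hold 1 each. The G or C content is 58.3% and 77.5% at the Zic windows, 42.4% at the Pax1 intron and 54.3% upstream of Pax9. The median over all vBM-MSC summit windows was 51.0%.

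Nkx3-2 had an accessible promoter in all tissues, at 11.4 in vBM-MSCs, 10.3 in fBM-MSCs, 7.72 in P-MSCs and 5.52 in A-MSCs, and so also where its RNA was listed at 0. A second promoter region, 436 to 495 bases inside the gene, reached the threshold in the marrow lists only (8.09 and 6.62), with weaker summits in the others. A vBM-MSC summit 3 bases before the start (6.62) had no counterpart summit within 250 bases. It lay, however, inside peaks (the accessible stretches around summits) of fBM-MSCs and P-MSCs. Another vBM-MSC summit, 4.34 kb upstream (6.99), had weaker summits in all other lists. A region in an intron of the neighbour Bod1l, about 34.2 kb upstream, was present only in the non-marrow lists (11.4 in A-MSCs, 7.72 in P-MSCs). Meox2 had its strongest summit 36.0 kb upstream, at 10.3 in fBM-MSCs and 5.52 to 5.89 elsewhere, and a summit in its own intron 33.8 kb from the start reached the threshold in fBM-MSCs alone (8.83), with a weaker vBM-MSC summit at the same place. All Meox1 regions were shared by at least 2 tissues, and 3 of the 6 were strongest in P-MSCs. The tallest, 44.9 kb downstream of the start, had a fold enrichment of 17.3 in P-MSCs, 11 in each of vBM-MSCs and A-MSCs and 6.62 in fBM-MSCs.

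Over all 6 loci, taken as the genes and 50 kb on each side, 34 regions were found, of which 26 were accessible in vBM-MSCs, 17 in fBM-MSCs and 11 in each non-marrow tissue. In vBM-MSCs 13 of the 26 summits (50%) had no counterpart within 250 bases in another list, against 12.9% of all 59536 vBM-MSC summits. It was 5 of 17 in fBM-MSCs against 18.0% of that list, 0 of 11 in P-MSCs against 13.1%, and 1 of 11 in A-MSCs against 15.6%. The 13 lay at Zic1 and Zic4 (6), Pax9 (4), Nkx3-2 (2) and Pax1 (1), and for 8 of them no other tissue had a weaker summit either. Only summit positions were compared, and the summit at the Nkx3-2 start, among the 8, lay inside fBM-MSC and P-MSC peaks. The 13 became 24 with all deposited summits and 1 at a −log10 q of at least 20. Neighbouring summits are not independent, the lists are pooled, and no test was made.

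**Figure D2:**
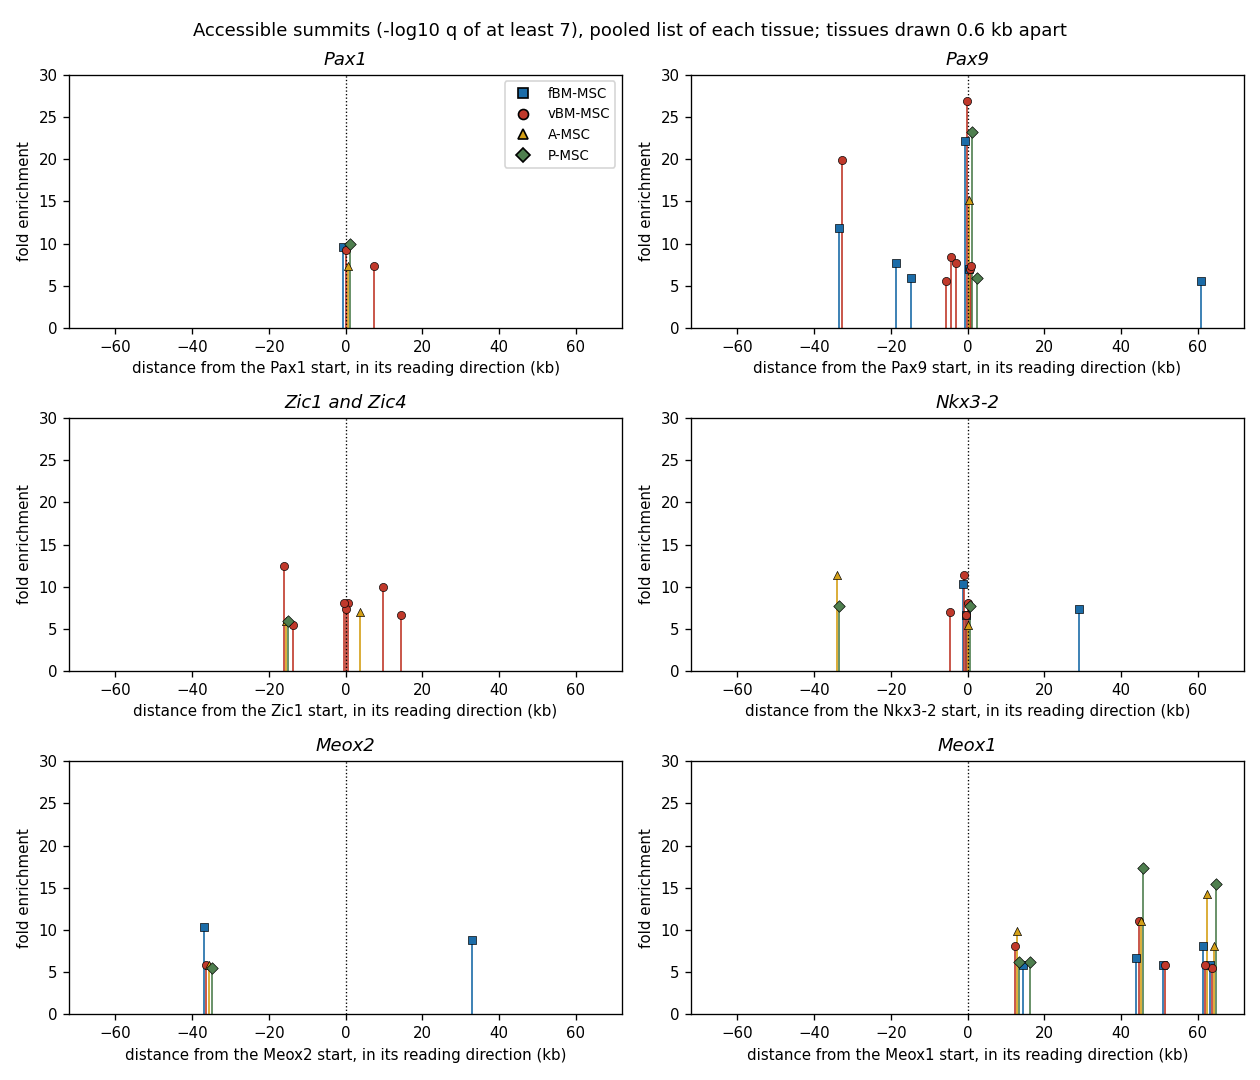
Fold enrichment of accessible summits (vertical axis) against distance from the start of the gene in kb, positive in the reading direction, at each locus; colours and symbols are tissues, and −log10 q is at least 7. Pax9 has tall promoter summits in all tissues (26.9 in vBM-MSCs) and a marrow summit 32.5 kb upstream, while the Zic1 start has vBM-MSC summits only.

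Short cores of the motifs of these factors and of the hedgehog effector GLI were searched on both strands. The letters were GTCACGC for PAX, CAGCAGG for ZIC, TAATTA for the MEOX homeobox, CCACTTA for NKX3-2 and ACCACCC for GLI. None of them overlap in the printed sequences. The Pax1 promoter held a GLI core at base 17 and a PAX core at base 217 of the 250, both on the minus strand. The GLI core occurs in 3.95% and the PAX core in 1.83% of all RefSeq promoters of that length. The Pax9 promoter held an NKX3-2 core, found in 2.13% of promoters. The Zic1, Zic4, Meox2 and Nkx3-2 promoters, and the distal windows printed here, held none of the 5 letter strings. In windows of 151 bases at all vBM-MSC summits, the shares ranged from 1.03% for PAX to 6.71% for ZIC. A match is a string of letters and not a measured site.

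The genes of highest likeness to a member were found by Pearson's r of log2(TPM + 1) over the 11 libraries among 12505 genes, which share libraries and depth, so no p is given. For Pax1 these were Gm15698 (r = 0.971), Arhgap36 (0.971) and Bmp15 (0.968). Arhgap36 measured 25.53 and 14.50 TPM in vBM-MSCs and at most 1.2 TPM elsewhere. Gm15698 measured 384.38 and 169.92 TPM in vBM-MSCs and at most 3.78 TPM elsewhere. Bmp15 never passed 0.90 TPM. For Pax9 they were Pcp4l1 (0.979), the Notch receptor gene Notch1 (0.974) and the matrix protein gene Tgfbi (0.972), and Tgfbi averaged 14.8 ± 3.14 TPM (SD, n = 2) in vBM-MSCs and was at most 2.2 TPM elsewhere. For Meox2 they were Onecut2 (0.939), H2-M1 (0.912) and Mfsd12 (0.903), and H2-M1 measured 10.89, 9.95 and 1.18 TPM in fBM-MSCs. The genes most like Pax1 had their higher value in vertebral replicate 1 and those most like Pax9 in replicate 2. Their choice by likeness over these same libraries favours that order, so it adds nothing beyond the members' own values.

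**Figure D3:**
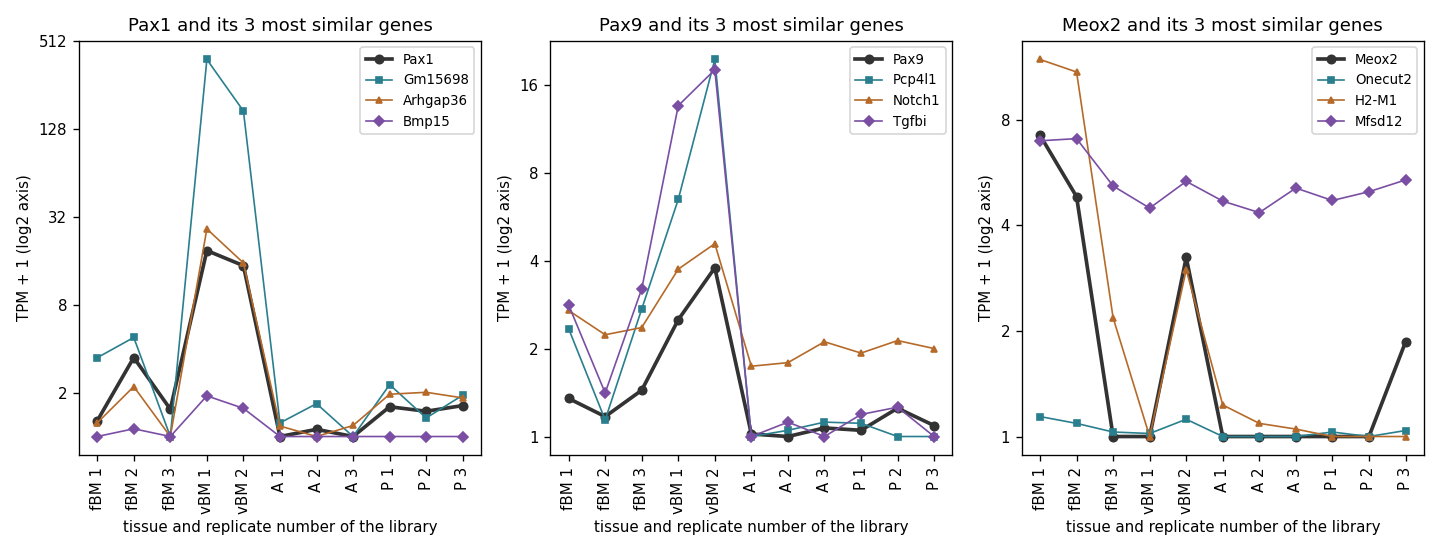
TPM + 1 on a log2 axis in each of the 11 libraries for Pax1, Pax9 and Meox2 and the 3 genes of highest Pearson's r to each; lines join libraries only to guide the eye. Pax1 and Pax9 and their likest genes peak in the 2 vBM-MSC libraries, and Meox2 peaks in fBM-MSC replicates 1 and 2.

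Of the other Zic genes, Zic5 measured 0.67 and 2.38 TPM in vBM-MSCs and at most 0.13 TPM in any other library. Zic2 measured 0.07 and 0.14 TPM in vBM-MSCs and was listed at 0 elsewhere. Zic5 and Zic2 were under the filter and not tested. Of the other 7 Pax genes only Pax3, the dermomyotome factor, was tested, and it was lower in vBM-MSCs (0 in both libraries) than in P-MSCs (1.09 ± 0.292 TPM, SD, n = 3, edgeR adjusted p = 0.015). Against fBM-MSCs Pax3 did not pass (0.00 to 0.33 TPM there, edgeR adjusted p = 0.159). The other Pax genes summed to 0 to 0.0400 TPM in vBM-MSCs.

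The wider pathway was read from 6 lists that hold 74 genes, 39 of them tested by edgeR's quasi-likelihood test in one model of all 11 libraries with Benjamini-Hochberg adjustment over all genes. Between vBM-MSCs and fBM-MSCs 3 listed genes were higher in vBM-MSCs (7.69%, against 7.56% of all genes tested) and 7 were lower (17.9%, against 5.24%). The share of higher genes was thus at the background, and 6 of the 7 lower genes were from the limb list. The lists were chosen with earlier results of these data known, so the shares and p-values of listed genes are not independent evidence. The median fold change of all genes was −0.02 on the log2 scale. Fitted with only these 2 tissues, 1 listed gene was higher and 2 were lower, and 1.71% of all genes were called higher. Fits of vBM-MSCs with 1 other tissue all have fewer libraries to estimate the spread. With A-MSCs the share called higher went from 13.2% to 10.8%, and with P-MSCs from 21.0% to 22.2%. Why calls fell most between the marrow sites was not tested.

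Of 9 tested somite and sclerotome genes, 2 were higher, 1 was lower and 6 did not pass the test, and the median log2 fold change was 0.49. Foxc2, a forkhead factor of the sclerotome, was higher in vBM-MSCs at 27.8 ± 0.396 TPM (SD, n = 2) against 15.8 ± 3.32 in fBM-MSCs (n = 3, log2 fold change 0.78, SE 0.19, edgeR adjusted p = 0.0216). The Foxc2 call was lost in the fit of only the 2 tissues compared, without vBM-MSC replicate 1 and without fBM-MSC replicate 2 (edgeR adjusted p = 0.0678 for the last). Mkx, a tendon homeobox factor, was lower at 0.880 ± 0.891 TPM against 4.08 ± 0.195 (log2 fold change −2.30, SE 0.64, edgeR adjusted p = 0.0384). Its call was lost in 9 of 16 alternatives, namely the fit of 2 tissues and those without any 1 fBM-MSC or A-MSC library, P-MSC replicate 2 or vBM-MSC replicate 1, with an adjusted p of 0.051 to 0.155. Scx, the tendon factor of the syndetome, measured 3.54 ± 3.04 TPM in vBM-MSCs and 18.9 ± 9.94 in fBM-MSCs and did not pass (edgeR adjusted p = 0.203). It was called without A-MSC replicate 2 (edgeR adjusted p = 0.0382) and with limma on log2(TPM + 1). Twist1 (adjusted p = 0.602) and Tbx18 (0.778, edgeR) did not pass either.

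None of the 9 tested hedgehog genes was called between vBM-MSCs and fBM-MSCs by edgeR, DESeq2 or limma, and 1, Gas1, had an unadjusted p under 0.05. Gas1, a co-receptor, measured 33.1 ± 3.51 TPM in vBM-MSCs and 17.1 ± 7.05 in fBM-MSCs (log2 fold change 0.90, SE 0.35, edgeR adjusted p = 0.119). Without fBM-MSC replicate 3 that gene passed the threshold (edgeR adjusted p = 0.0244). Smo, the signal transducer, measured 12.5 ± 0.636 and 10.3 ± 0.915 TPM (edgeR adjusted p = 0.399), and Disp1, which releases the ligand, 12.9 ± 2.28 and 10.4 ± 3.45 TPM (0.499). The target gene Gli1 was listed at 0 in all libraries of fBM-MSCs, vBM-MSCs and A-MSCs. The ligand Shh was listed at 0 in all libraries but 1 of vBM-MSCs (0.25 TPM).

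Of 7 tested cartilage genes none was called by edgeR between the marrow sites, with 2 (Matn3 and Sox9) at an unadjusted p under 0.05, 1 (Matn3) by DESeq2 and none by limma. Sox9, the master regulator of cartilage, measured 11.58 and 12.34 TPM in vBM-MSCs and 7.86 ± 1.51 in fBM-MSCs (edgeR adjusted p = 0.167). Comp, a cartilage matrix protein, measured 103 ± 8.22 and 44.2 ± 40.7 TPM (0.417). Col2a1, the main cartilage collagen, measured 4.92 and 75.08 TPM in the 2 vBM-MSC libraries and 0.43 to 4.41 TPM in fBM-MSCs (edgeR adjusted p = 0.189).

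Of 12 tested limb and appendicular genes 6 were lower in vBM-MSCs, 1 was higher and 5 did not pass. Pitx1, the hindlimb factor, measured 0.00 and 0.04 TPM in vBM-MSCs and 4.32 ± 1.90 TPM in fBM-MSCs (SD, n = 3, edgeR adjusted p = 0.00877). Tbx4, also of the hindlimb, measured 0.00 and 0.02 against 0.96 to 1.39 TPM (edgeR adjusted p = 0.00212). Shox2 measured 0.00 and 1.10 against 17.10 to 27.14 TPM (0.0123), Hoxc10 0.59 and 3.55 against 19.26 to 19.61 TPM (0.0129), and Tbx5 0 in both against 0.21 to 1.31 TPM (0.00874, all edgeR). The Tbx5 call was lost with limma on log2(TPM + 1) (adjusted p = 0.0653) and in the edgeR fit of 2 tissues (0.0747), and those of Shox2 (0.0539) and Hoxc10 (0.0509) in the latter. Msx1 was the least stable at a log2 fold change of −1.56 (SE 0.44, edgeR adjusted p = 0.0409), a call lost in 11 of 16 alternatives, among them those without vBM-MSC replicate 1 (0.233), fBM-MSC replicate 2 (0.102) or 3, A-MSC replicate 2 or 3, or any 1 P-MSC library. The higher gene was Prrx2, a mesenchymal homeobox factor named here after its values were seen, with 209 ± 30.2 TPM in vBM-MSCs and 93.9 ± 6.94 in fBM-MSCs (log2 fold change 1.12, SE 0.17, edgeR adjusted p = 0.00171). Its relative Prrx1 measured 43.4 ± 10.8 and 37.1 ± 1.52 TPM (edgeR adjusted p = 0.495, and 0.0379 without vBM-MSC replicate 2), and Msx2 and Lhx9 did not pass the test either.

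**Figure D4:**
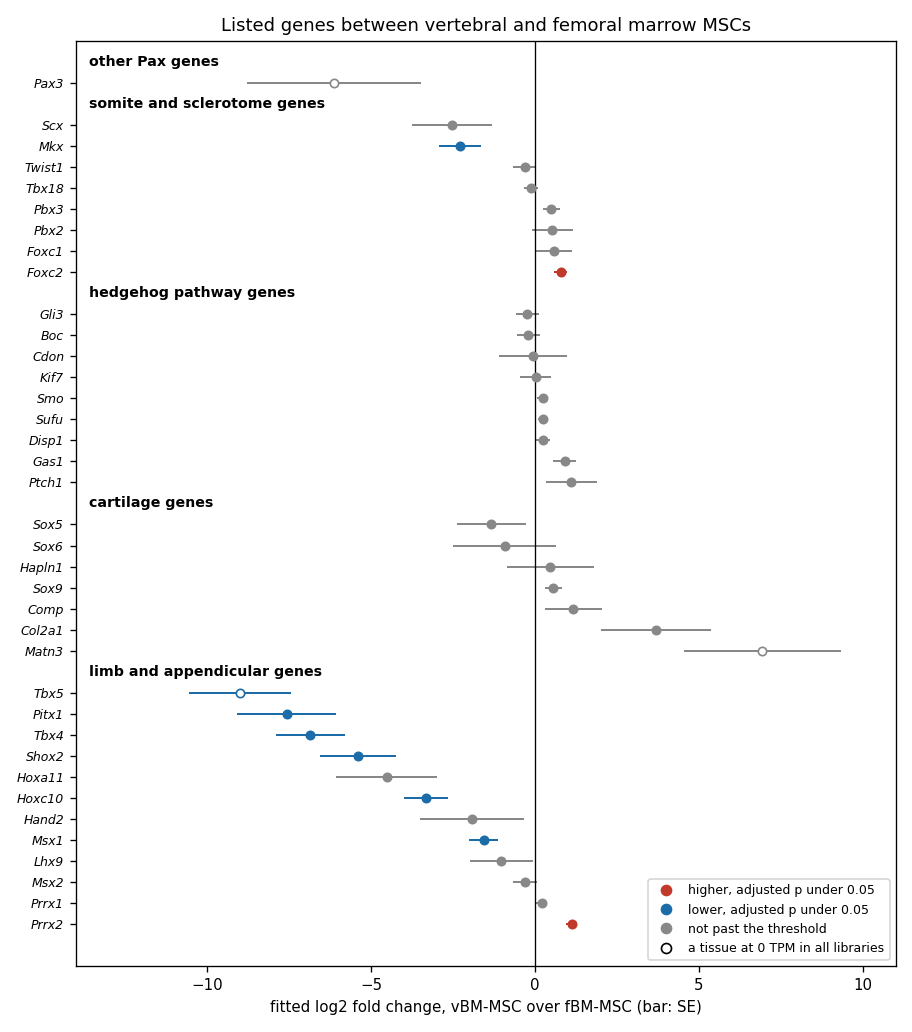
Fitted log2 fold change of vBM-MSCs over fBM-MSCs (horizontal axis) with its SE for the tested listed genes reported here, by list; red is higher, blue is lower and grey did not pass the test, and open symbols mark genes at 0 in all libraries of one of the tissues, whose fold has no bound. The limb list holds 6 of the 7 lower genes and no hedgehog or cartilage gene passed the test.

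The comparisons with the non-marrow tissues share the vBM-MSC libraries with the one above. Against A-MSCs 9 of 39 were higher (23.1%, against 13.2% of all genes tested) and 1 was lower (2.56%, against 12.4%). Against P-MSCs 12 were higher (30.8%, against 21.0%) and 4 were lower (10.3%, against 17.7%). Foxc1, a forkhead factor of the sclerotome, was higher in vBM-MSCs (3.27 ± 0.481 TPM, SD, n = 2) than in A-MSCs (0.163 ± 0.102, n = 3) with a log2 fold change of 4.18 (SE 0.61, edgeR adjusted p = 0.000683). It was also higher than in P-MSCs (2.77, SE 0.57, edgeR adjusted p = 0.00267). Against fBM-MSCs (2.13 ± 1.10 TPM, n = 3) Foxc1 did not pass (log2 fold change 0.57, SE 0.55, edgeR adjusted p = 0.549). Gas1 was higher by 3.62 (SE 0.37) on the log2 scale than in A-MSCs and by 5.72 (SE 0.42) than in P-MSCs (edgeR adjusted p = 7.76e-05 and 2.95e-06). Disp1 was lower than in A-MSCs (−0.87, SE 0.23, edgeR adjusted p = 0.0167), where it was the one lower listed gene and lost that call without vBM-MSC replicate 1, vBM-MSC replicate 2 or A-MSC replicate 3, and was higher than in P-MSCs (0.61, SE 0.22, edgeR adjusted p = 0.0479). Of the cartilage genes 3 of 7 were higher in each comparison, among them Comp and Hapln1 in both, with Comp at 0.290 ± 0.502 TPM in P-MSCs and 0.0400 ± 0.0693 TPM in A-MSCs (SD, n = 3 each).

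Markers of other cells in which these genes are also active were read beside the vertebral pattern. Zic1 also marks brown fat, and of 7 brown fat markers 4 were tested and 2, Lhx8 and Dio2, were higher in vBM-MSCs than in fBM-MSCs. Lhx8 measured 0.51 and 1.12 TPM in vBM-MSCs and 0 in fBM-MSCs (edgeR adjusted p = 0.0159). Dio2 measured 0.46 and 1.24 TPM against 0.01 to 0.07 TPM (edgeR adjusted p = 0.0208), a call lost without vBM-MSC replicate 1 (0.145). The defining genes Ucp1 and Ppargc1a were listed at 0 in vBM-MSCs, and the summed list ranged from 3.18 to 4.17 TPM there, 0.430 to 4.67 in fBM-MSCs, 1.68 to 2.61 in P-MSCs and 1.93 to 2.88 in A-MSCs. In P-MSCs, Lhx8 measured 0.82 to 1.68 TPM while Zic1 was listed at 0.

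Muscle markers gave 1 of 2 tested genes higher than in fBM-MSCs, Acta1 (54.53 and 495.29 TPM against 8.54 to 19.26, edgeR adjusted p = 0.00224). The Acta1 call was lost in the fit of 2 tissues (edgeR adjusted p = 0.0563). Its log2 fold change of 4.44 became 1.92 without vBM-MSC replicate 1. The myogenic factors Myod1, Myf5, Myog and Pax7 were listed at 0 in all 4 tissues, and the summed list was 55.9 to 496 TPM in vBM-MSCs, 9.24 to 20.5 in fBM-MSCs, 716 to 785 in P-MSCs and 1035 to 1273 in A-MSCs. Of the neural and glial markers, Sox10 and Olig2 were listed at 0 in all tissues, and neither tested gene was called between the marrow sites by edgeR, by an unadjusted p under 0.05 or by DESeq2 (0 of 2 each). Their summed level was 61.6 to 80.4 TPM in vBM-MSCs, within the 61.2 to 101 TPM of fBM-MSCs, and was 30.7 to 37.6 in P-MSCs and 106 to 130 in A-MSCs. Of the notochord markers T, Foxa2, Krt8 and Noto were listed at 0 in vBM-MSCs, and 0 of 3 tested were called between the marrow sites by edgeR, unadjusted or by DESeq2, though Krt19 passed without fBM-MSC replicate 2 (edgeR adjusted p = 0.0244). Their summed level was 55.9 to 61.3 TPM in vBM-MSCs, 28.1 to 56.6 in fBM-MSCs, 618 to 682 in P-MSCs and 84.8 to 160 in A-MSCs.

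Of the blood cell markers Cd68 was lower in vBM-MSCs than in fBM-MSCs (1.80 ± 1.31 TPM, n = 2, against 14.6 ± 3.37, n = 3, edgeR adjusted p = 0.00305), and the summed list was 2.03 to 3.43 TPM in vBM-MSCs, 13.0 to 19.1 in fBM-MSCs, 7.59 to 9.96 in P-MSCs and 9.04 to 12.5 in A-MSCs. Adgre1, Itgam, Cd3e and Hbb-bs were listed at 0 in both marrow groups. Endothelial markers summed to at most 1.19 TPM in vBM-MSCs and 1.06 in fBM-MSCs, with 0 of 4 called between them by edgeR, unadjusted or by DESeq2, and reached 8.29 TPM in P-MSCs and 55.3 in A-MSCs. The surface gene Ly6a, which encodes Sca-1, was higher in vBM-MSCs (688 ± 166 TPM, n = 2) than in fBM-MSCs (351 ± 116, n = 3, edgeR adjusted p = 0.03). That call was lost without vBM-MSC replicate 1 (0.292), fBM-MSC replicate 1 (0.0689) or fBM-MSC replicate 2 (0.0911). The part of these cell types in the levels of the 7 genes was not tested.

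The nearest annotated neighbours of the Pax and Zic genes overlapped between the marrow sites or were listed at 0. AI646519 and A530006G24Rik, next to Pax1, were listed at 0 in every library, as was Plscr5, beyond Zic4. Slc25a21, which overlaps Pax9, measured 0.28 to 0.51 TPM in vBM-MSCs and 0.00 to 0.33 in fBM-MSCs, and Nkx2-9, 82.2 kb from Pax9, 0.00 to 0.24 and 0.07 to 0.41 TPM. Prps1l3, on the other side of Pax9, measured 19.40 to 25.10 and 16.48 to 20.54 TPM. Tbc1d2b, 1087 kb beyond Zic1, measured 2.89 to 5.83 TPM in vBM-MSCs and 3.43 to 4.49 in fBM-MSCs. Agmo, next to Meox2, measured 1.76 to 2.11 TPM in vBM-MSCs and 1.02 to 1.70 in fBM-MSCs, without overlap. These neighbours were chosen by position alone, and their levels were not tested.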

How the data were processed

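The members and the gene lists were chosen with earlier results of these data known. For RNA-seq, the authors prepared unstranded Smart-seq2 libraries and quantified paired reads with RSEM and STAR against mm10. The expected counts of the deposited tables are RSEM's estimates and are not normalized. The TPM values of the deposited tables are scaled by the authors' RSEM run for effective transcript length and library size. For ATAC-seq, the authors trimmed with Trim Galore, aligned uniquely with Bowtie, removed duplicates with Picard, shifted reads for Tn5 insertion, removed blacklisted regions and called summits with MACS2 on pooled reads of each tissue, without local background. The deposited fold enrichment of a summit is a ratio to the genome-wide background. The deposited −log10 q is from MACS2, and the deposited summit offset placed each summit. Versions of the authors' tools are not given in the sources used here.

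Rounded counts entered edgeR 4.0.16 (quasi-likelihood, TMM factors of 0.913 to 1.11, median biological coefficient of variation 19.8%) in R 4.3.3, over the 12509 genes that reached 1 CPM in 2 or more of 11 libraries, two-sided, at an adjusted p of 0.05. All libraries entered one model of 4 tissues as independent samples, so p-values measure the spread between libraries, some of which share a mouse. On simulated counts of 12248 genes, 200 of them changed in vBM-MSCs, the vBM-MSC to fBM-MSC comparison recovered 83% of 4-fold and 45% of 2-fold changes, and 7.25% of its calls were false. The simulation gave each gene the same spread in all tissues and independent libraries. Real marrow libraries differed more than those of A-MSCs and P-MSCs, so these rates may not hold between the marrow sites. The p-values between the marrow sites, from the one model of 4 tissues, may for that reason be too small. Pooled ratios are of counts summed over a tissue's libraries, scaled by their summed depth. A count of 0 allows up to 3 counts, and this floor covers counting error only. DESeq2 1.42.0 and limma 3.58.1, on log2(TPM + 1), were alternatives. The text names the members, the listed genes called between the marrow sites (at most the 6 of largest fold a list) and up to 3 others of highest TPM, the 3 likest genes of each member with a mean of at least 1 TPM in some tissue, and the strongest summits. Summits of 2 lists were shared within 250 bases. Peak coordinates and RefSeq annotation of GRCm38 were checked to have matching chromosomes, and curated transcripts were used. No 2 libraries of a tissue differed by less than sampling noise. Sequences of 6 of the 7 promoters were matched in RefSeq by symbol. Values of some listed genes are not reported here, though the counts of their lists include them.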

Additional observations from a re-analysis of the deposited data

How the results depend on the processing

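Fitting only the 2 tissues compared moved the listed genes called between vBM-MSCs and fBM-MSCs from 3 to 1 higher and from 7 to 2 lower, with 1.71% and 0.822% of all genes called. DESeq2 moved the listed genes lower in vBM-MSCs than in A-MSCs from 1 to 2, and leaving out a library gave 0 to 1, with 0 without vBM-MSC replicate 2, and with a gene other than Disp1 without vBM-MSC replicate 1 or A-MSC replicate 3. With the replicate block, 4 listed genes were higher and 6 lower in vBM-MSCs than in fBM-MSCs, with Msx1 (adjusted p = 0.0527), Lhx8 (0.0504) and Dio2 (0.0531) no longer called and Gas1 called (0.00513). Replicate numbers gave no clear pairing of the samples (correlations of deviations from −0.04 to 0.17, 1 of 15 pairs above 0.1). Pairs of unlike number gave −0.17 to 0.17 (1 of 30 above 0.1). With so few libraries a tissue, this check cannot exclude that same-numbered libraries share a mouse. The counts of the 6 directions stayed within 1.5 times the reported value under the other alternatives, and no called gene changed sign between the marrow sites, while the fold change of Prrx1, Msx2, Twist1, Tbx18 and Lhx9, not called, turned in some. Of 10 listed genes called between the marrow sites, 3 kept their call in all 16 alternatives (Pitx1, Tbx4 and Prrx2).

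The log2 fold change of Pax1 over fBM-MSCs ranged from 3.14 to 5.17 and that of Pax9 from 1.23 to 2.98, the lowest with limma on log2(TPM + 1), which understates changes of low genes. The range of Pax9 leaves out the fits without a vBM-MSC library, in which it is under the filter. Regions with a summit in vBM-MSCs alone numbered 13, and 24 with all deposited summits, 1 at a −log10 q of at least 20, 13 and 15 with windows of 20 kb and 100 kb, and 10 when shared within 500 bases. At the stricter q, the same 2 member promoters (Pax9 and Nkx3-2) were accessible in vBM-MSCs and fBM-MSCs, and 1 (Pax9) in each of A-MSCs and P-MSCs. With all deposited summits, promoter summits were added at Zic1 in A-MSCs, Zic4 in vBM-MSCs and Meox2 in P-MSCs, and a promoter window of 2 kb also added Zic4 in vBM-MSCs. The cause of these changes was not tested. With 2 vBM-MSC libraries and at most 139 counts over both, the levels of Zic1, Zic4, Meox1, Meox2 and Nkx3-2 there are imprecise.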
